A study of Mus musculus with 8 samples.

Results

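BET proteins are chromatin readers that hold acetylated histone tails through paired bromodomains and bring the transcription machinery to them. The BET bromodomain genes in these germ cells were Brdt, whose protein is made almost only in testis and is needed for the remodelling of spermatid chromatin, and the widely expressed Brd2 and Brd3. They were chosen by gene symbol, and were 3 of 23343 genes and 6 of 26099 rows in the RNA-seq tables, each row being 1 RefSeq start site. In the H3K27ac peak lists, intervals assigned to these genes or lying within 2 kb of their start sites numbered 3 and 5 for Brdt, 2 and 6 for Brd2 and 5 and 8 for Brd3 in the samples of pachytene spermatocytes (PS), out of 41095 and 49434. In round spermatids (RS) they numbered 14 and 8, 4 and 5, and 15 and 8, out of 74919 and 45863.

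Data came from 2 kinds of library, all from adult C57BL/6 testis. H3K27ac, an acetylation mark of active promoters and enhancers, was measured by ChIP-seq in wild-type PS (n = 2) and RS (n = 2). RNA was sequenced from PS (n = 2) and RS (n = 2) of mice lacking both Rnf8, a ubiquitin ligase, and Scml2, an X-linked germline Polycomb protein (Rnf8- and Scml2-dKO, hereafter dKO). Cells were separated by sedimentation through a BSA gradient, and the methods describe PS and RS taken from the testes of 1 dKO mouse at a time. Both deletions were carried by every RNA library, so RNA values describe the dKO, H3K27ac values describe wild-type cells, and no wild-type RNA was analysed here. PS are in meiotic prophase and RS are the haploid cells that follow, so the comparison below is RS against PS within each assay. The study describes the samples of a group as biological replicates, and the labels do not say which animals they came from. The p-values measure the spread between these samples.

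The genes carried 9655405 to 12289694 reads per RNA library. All 11 RS markers were called higher in RS, whereas of 10 PS markers 5 were lower, 4 were not called and Dmc1, a meiotic recombinase, was higher. Summed over 15 somatic testis markers, RPKM (reads scaled to transcript length and library total) was 551 to 737 in PS against 55.9 to 84.2 in RS, mostly from the Leydig cell hormone Insl3, and no somatic marker was at 0 in both samples of a stage. Of 14 somatic markers tested, 6 were called lower in RS, 3 higher and 5 not. In the other direction from Insl3, Csf1r, a macrophage receptor, was at 0.543 and 0.418 RPKM in PS and at 6.68 and 5.81 in RS. The 7 spermatogonial markers summed to 26.6 to 39.4 in PS and 46.4 to 51.3 in RS, with 4 called higher and 3 not. The part of these other cells in the results below was not tested. Rnf8 had 93 and 110 reads in PS and 61 and 50 in RS, and Scml2 had 40 and 92 in PS and 44 and 98 in RS. Gene sums do not show which exons these reads came from, so they do not check the deletions.

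The 250 bases that precede the start site with most reads of Brdt and Brd2 are shown because the isoforms described below begin at them, and an H3K27ac interval overlapped both in every sample. They were read from the mouse RefSeq assembly GRCm38.p6 (mm10) and are given 5′ to 3′ on the strand of the gene. Capitals in Brdt mark CACGTG (E-box) and CCAAT, and capitals in Brd2 mark the last bases before an exon that the coding isoforms join by splicing. The window is chr5:107330944-107331193 on the plus strand for Brdt and chr17:34119901-34120150 on the minus strand for Brd2.
Brdt: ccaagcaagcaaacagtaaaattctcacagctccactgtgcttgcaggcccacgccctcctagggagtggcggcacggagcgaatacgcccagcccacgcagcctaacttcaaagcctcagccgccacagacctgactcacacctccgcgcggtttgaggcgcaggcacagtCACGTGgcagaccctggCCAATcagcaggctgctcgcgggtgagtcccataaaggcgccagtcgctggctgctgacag
Brd2: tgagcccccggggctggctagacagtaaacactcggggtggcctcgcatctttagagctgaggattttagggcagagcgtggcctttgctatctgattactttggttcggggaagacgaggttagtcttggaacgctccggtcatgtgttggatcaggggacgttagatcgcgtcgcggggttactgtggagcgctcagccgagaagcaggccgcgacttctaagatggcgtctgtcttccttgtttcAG
CACGTG was present in 6.02% and CCAAT in 33.8% of the same 250-base window of 32851 RefSeq promoters, counted on both strands. The Brdt window held 1 of each, beginning 78 and 61 bases before the start. No TGACGTCA (CRE), AACTG or AACGG (MYB core) or TATAAA was found in either window, against 1.55%, 39.1%, 14.5% and 12.4% of all promoters. The dinucleotide CG occurred 16 times for Brdt and 18 for Brd2, and the median promoter held 6. In CG count the Brdt and Brd2 windows thus stood above 74.6% and 78.3% of promoters.

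All 3 BET genes were well expressed at both stages, and none changed by the 1.5-fold that the study required. Brdt was at 126.0 and 114.4 RPKM in PS and at 117.0 and 115.3 in RS, and the stages overlapped. Brd2 was at 115.6 and 113.8 RPKM in PS and at 99.2 and 100.9 in RS, so both RS samples were lower. Brd3 was at 40.1 and 40.6 RPKM in PS and at 45.6 and 44.5 in RS, so both RS samples were higher. Neither difference was called in the test below, and the share of all genes that separate in this way was not counted. The RPKM levels placed Brdt and Brd2 between the 93.3th and the 96.1th percentile of the 14647 genes tested and Brd3 between the 85.0th and the 86.0th. In bulk samples like these, fewer cells of a type and less RNA per cell cannot be told apart.

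**Figure D1:**
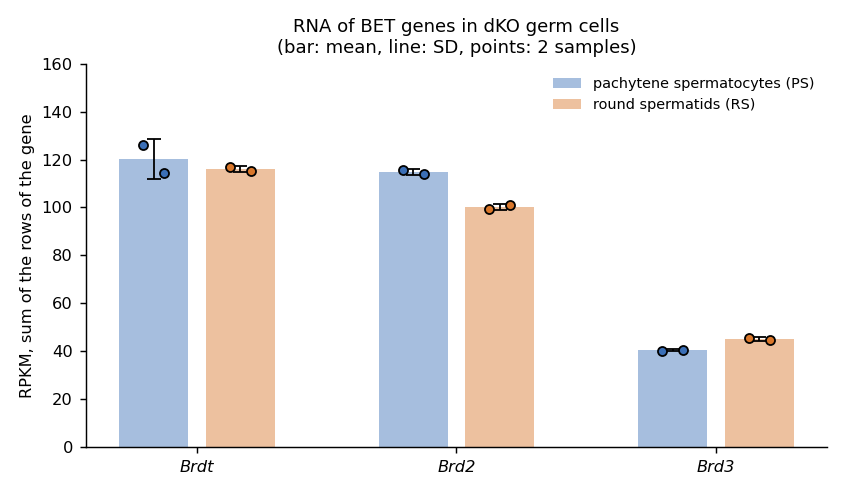
RPKM of Brdt, Brd2 and Brd3 in PS (blue) and RS (orange) of the dKO, with the mean as a bar, the SD as a line and the 2 samples of each group as points. The Brdt samples overlap between stages, and Brd3 lies below the others throughout. Brd2 is lower and Brd3 higher in both RS samples, but neither was called.

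In edgeR's quasi-likelihood test on the reads of each gene, 8497 of 14647 genes (58.0%) were called at an adjusted p below 0.05 and at least 1.5-fold, 4448 of them higher in RS (30.4%) and 4049 lower (27.6%). None of the 3 BET genes was called. The log2 fold change of Brd2 was -0.16 (SE 0.11, adjusted p = 0.23) with a 95% interval of -0.41 to 0.09. For Brd3 it was 0.20 (SE 0.12, adjusted p = 0.15) with an interval of -0.06 to 0.47. For Brdt it was -0.29 (SE 0.11, adjusted p = 0.045), a change below 1.5-fold, with an interval of -0.54 to -0.04. All 3 intervals lay within a 1.5-fold change. The adjusted p of Brdt lay between 0.045 and 0.80 under the alternatives and passed 0.05 in 1 of them.

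Compared per length as RPKM, the order of the stage means was Brdt, Brd2 and Brd3 in both stages. In PS the ranges of Brdt and Brd2 overlapped, with means of 120 ± 8.19 and 115 ± 1.28 (SD, n = 2), and both were above Brd3 (40.4 ± 0.345). In RS Brdt (116 ± 1.201) was above Brd2 (100.04 ± 1.22) in both samples, and Brd3 was again the lowest (45.04 ± 0.754). The 3 genes together reached 282 and 269 RPKM in PS and 262 and 261 in RS. Brd3 made up 14.2% and 15.1% of this sum in PS and 17.4% and 17.1% in RS, Brd2 41.0% and 42.3% against 37.9% and 38.7%, and Brdt between 42.6% and 44.7% in every sample.

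The single row of Brdt joins a pair of RefSeq isoforms of unequal length, so its reads and its RPKM need not move together. Both begin at chr5:107331194 on the plus strand. NM_054054 has 19 exons over 4710 bases and ends at position 107387058, with 2871 coding bases. NM_001079873 has 7 exons over 1588 bases, ends at position 107350741 and has 981 coding bases, with the same first coding base, so its annotated protein of 326 residues is a shortened form of the 956 of NM_054054. With these lengths, the reads of each isoform follow from the row's reads and RPKM as 2 equations with 2 unknowns. The total of reads behind the RPKM, needed for this, was derived per sample, and 100% of the 2071 to 2372 single-isoform rows of 500 reads or more per sample gave the same total within 1%.

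The long Brdt isoform was lower in RS, and the short one took a larger share of the gene. NM_054054 had 3179 and 3213 reads in PS against 2382 and 2148 in RS, which is 59.2 and 61.4 RPKM against 36.1 and 38.7. The stages did not overlap, and the mean went from 60.3 ± 1.54 to 37.4 ± 1.81 RPKM (SD, n = 2). NM_001079873 had 1209 and 935 reads in PS against 1796 and 1432 in RS, which is 66.8 and 53.0 RPKM against 80.8 and 76.6, again without overlap. The short isoform thus made up 53.0% and 46.3% of the Brdt RPKM in PS and 69.1% and 66.4% in RS.

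In an edgeR fit over 13551 single isoforms, of which 7061 (52.1%) were called, 3722 higher in RS (27.5%) and 3339 lower (24.6%), the long isoform was called with a log2 fold change of -0.65 (SE 0.10, interval -0.92 to -0.39, adjusted p = 0.0049). The short isoform was not called, with 0.43 (SE 0.14, interval 0.08 to 0.78, adjusted p = 0.044). The call for the long isoform was lost without PS replicate 2 (-0.58, adjusted p = 0.012, below 1.5-fold) and without RS replicate 1 (-0.51, adjusted p = 0.067). Without RS replicate 2 it held only just (-0.59, adjusted p = 0.045). A shift of this kind was common, since the share of the shorter isoform was above both PS samples in both RS samples in 42.3% of 123 rows that could be solved in the same way, and below in 23.6%. The authors' software divided reads between isoforms by an expectation-maximization algorithm, so the split is an estimate.

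**Figure D2:**
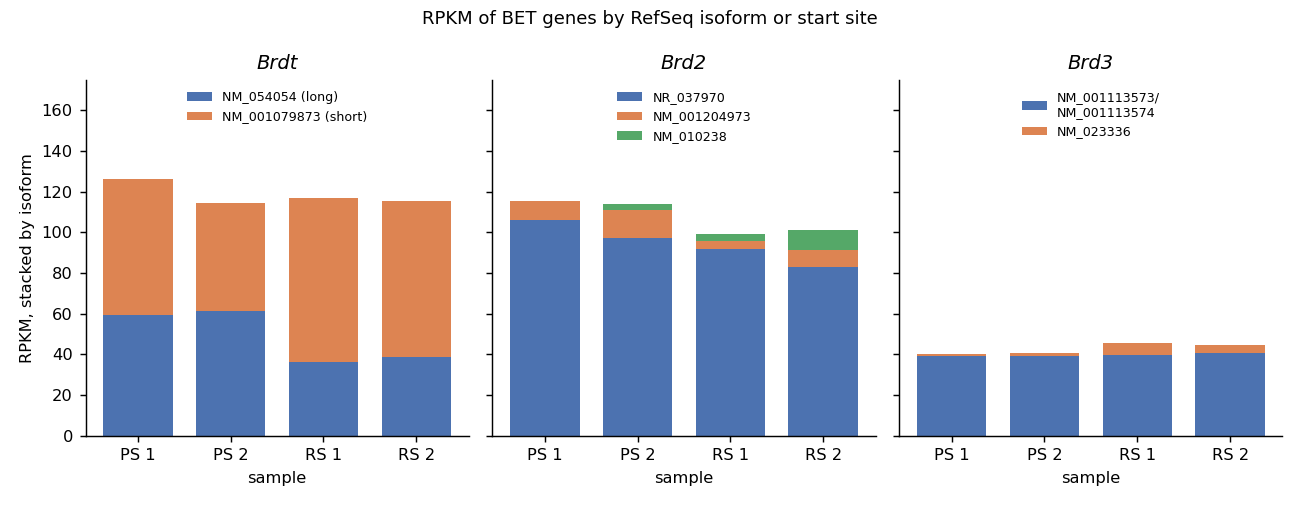
RPKM of each BET gene in the 4 dKO samples, stacked by RefSeq isoform (Brdt, solved from reads and RPKM) or by the deposited row of each start site (Brd2, Brd3). The long Brdt isoform falls from 59.2 and 61.4 RPKM in PS to 36.1 and 38.7 in RS while the column heights stay alike, and the Brd2 columns consist mostly of NR_037970.

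Most Brd2 reads were assigned to a RefSeq transcript annotated as non-coding. Brd2 lies on the minus strand of chromosome 17 and all of its 3 transcripts end at position 34112019. NR_037970 begins at position 34119900 and had 5211 and 4669 reads in PS and 5546 and 4212 in RS. Its start coincides with the first base of exon 2 of both coding transcripts, and the bases before it in the sequence above end in AG, as introns do. Under the H3K27ac domain described below, its exons are also those of both coding transcripts, except exon 3 (chr17:34116598-34116689). The authors' software divided the reads between these overlapping transcripts, so the split is an estimate and does not show that most Brd2 RNA is non-coding. NM_001204973, which begins farthest upstream at position 34122607, had 509 and 713 reads in PS and 238 and 458 in RS. NM_010238, which begins at position 34121747, had 0 and 128 reads in PS and 227 and 511 in RS. By row, the log2 fold change was -0.17 for NR_037970 (adjusted p = 0.23), -0.92 for NM_001204973 (adjusted p = 0.12) and 2.396 for NM_010238 (interval -1.29 to 6.09, adjusted p = 0.21) in an edgeR fit where 51.8% of 15626 rows were called, and none of them was called. In the isoform fit NM_001204973 was called without RS replicate 2 (-1.53, adjusted p = 0.019), NM_010238 was called without PS replicate 2 (adjusted p = 0.0036), and the value of NR_037970 went from -0.18 to 0.00 without RS replicate 2.

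For Brd3, on the minus strand of chromosome 2, the row called between stages was that of the minor start site. The row of NM_001113573 and NM_001113574, which begin at position 27475673, had 2374 and 2316 reads in PS and 2943 and 2543 in RS, with a log2 fold change of 0.08 (SE 0.09, adjusted p = 0.50). NM_023336 begins downstream at position 27475398 and had 51 and 79 reads in PS against 450 and 244 in RS. Both RS samples were well above both PS samples, and the row was called at 2.24 (SE 0.35, interval 1.33 to 3.14, adjusted p = 0.0051). The same row kept its call in the isoform fit without any 1 sample, at 1.89 to 2.64. It supplied 2.09% and 3.24% of the Brd3 RPKM in PS and 13.0% and 8.61% in RS. As for Brd2, the authors' software divided the reads between overlapping transcripts. The split between the starts is thus an estimate and does not show a change in start site use. The annotated coding sequences from both starts begin and end at the same bases, and NM_023336 and NM_001113573 code for the same number of residues (726).

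Genes with levels most like those of each BET gene were found by the Euclidean distance of log2(RPKM + 1) over the 4 RNA samples among 14646 other genes. Nearest to Brdt were Plk1s1 (distance 0.054), Ints10 (0.16) and Amz2 (0.17). Nearest to Brd2 were Dgcr6 (0.073), Eif4g3 (0.11) and 2610507B11Rik (0.11), and among the nearest to Brd3 were Eif4b (0.084) and Prdx6 (0.13). Plk1s1 was at 123 and 117 RPKM in PS and at 115 in both RS samples.

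P-TEFb, the kinase that BET proteins bring to paused RNA polymerase II, is Cdk9 with a cyclin T. Of 9 partner and P-TEFb genes tested, 1 was called higher in RS, 2 lower and 6 not, and the median log2 fold change was -0.01 beside 0.01 over all genes, of which 58.0% were called, 30.4% higher and 27.6% lower. Cdk9 was at 7.61 and 15.1 RPKM in PS and at 3.16 and 3.86 in RS, a 3.16-fold fall (adjusted p = 0.0020). Hexim1, an inhibitor of P-TEFb, fell from 5.32 and 4.66 to 1.98 and 2.67 RPKM (2.09-fold, adjusted p = 0.0029). Ccnt1, which encodes cyclin T1, rose from 2.51 and 2.30 to 7.10 and 7.98 RPKM (3.24-fold, adjusted p = 0.00018). The stages did not overlap for these genes. Larp7 and Mepce, which with Hexim1 hold P-TEFb in the inactive 7SK particle, were not called (-0.10 and -0.05 on the log2 scale, adjusted p = 0.48 and 0.74).

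Of 36 other bromodomain genes, 34 were tested, 9 were called higher in RS, 9 lower and 16 not, with a median log2 fold change of -0.18. Over all genes 30.4% were called higher and 27.6% lower, so these counts were near the background. The largest rise was that of Kat2b, an acetyltransferase (2.09 and 1.60 RPKM in PS, 13.8 and 10.2 in RS, 6.23-fold). Trim66 (5.79-fold), Brwd3 (5.50-fold), Zmynd8 (2.67-fold) and Cecr2 (2.64-fold) followed. Of these, Brwd3 (0.409 and 0.294 RPKM in PS, 1.90 and 1.87 in RS) and Zmynd8 (0.564 and 0.306 in PS, 0.994 and 1.01 in RS) were low at both stages. The largest falls were those of Baz1a, a chromatin remodeller subunit (84.6 and 79.4 RPKM in PS, 18.4 and 15.5 in RS, 4.69-fold), Brd8 (2.96-fold), Brd7 (2.75-fold), Brd1 (2.402-fold) and Kat2a, the paralogue of Kat2b (2.31-fold). Adjusted p lay between 5.0e-06 for Baz1a and 0.0059 for Zmynd8.

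Genes for the acetylation of histone H4, the mark that Brdt reads, were lower in RS more often than higher. Of 19 tested, 8 were called lower, 2 higher and 9 not, with a median log2 fold change of -0.39, beside 27.6% lower and 30.4% higher over all genes. Mrgbp, a NuA4 subunit, fell from 50.3 and 54.98 to 13.7 and 11.8 RPKM (4.01-fold, adjusted p = 2.0e-05). Trrap, a scaffold of NuA4, fell 3.65-fold and Kat7, an H3 and H4 acetyltransferase, fell 3.44-fold. Nutm1, a testis protein that binds the acetyltransferase p300, rose from 3.20 and 4.25 to 23.8 and 24.0 RPKM (6.60-fold, adjusted p = 7.2e-06), and Ing3 rose 3.17-fold.

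Genes of histone replacement, the process in which Brdt acts in spermatids, were mostly higher in RS. Of 16 genes, 15 were tested, 11 of them were called higher in RS, 3 lower and 1 not, with a median log2 fold change of 3.20, beside 30.4% higher and 27.6% lower over all genes. Tnp1, Tnp2, Prm1 and Prm2 also stand in the list of RS markers. Prm2 was at 102 and 189 RPKM in PS and at 3747 and 4408 in RS (28.7-fold), Prm1 rose 27.4-fold and Tnp2 rose 20.8-fold, all coding for the small basic proteins that replace histones. Psma8, a germline proteasome subunit, fell 7.21-fold, Hist1h2ba, a testis H2B, fell 4.501-fold and H3f3b, which encodes histone H3.3, fell 1.67-fold. Brdt itself was at a similar RPKM at both stages, as given above.

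**Figure D3:**
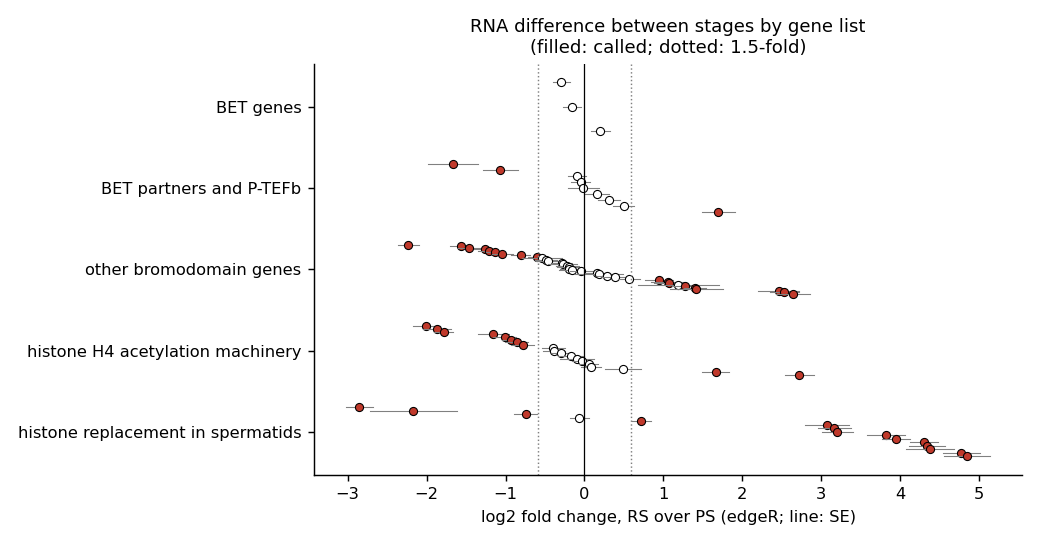
Log2 fold change of RNA in RS over PS for each tested gene of 5 lists, with the SE as a line, filled where called and with dotted lines at 1.5-fold. The 3 BET genes lie between -0.29 and 0.20, whereas the 15 genes of histone replacement reach from -2.85 to 4.84.

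In wild-type cells, every BET promoter carried an H3K27ac peak at both stages, and those of Brdt and Brd2 were higher than that of Brd3 in every sample. Height is given as fold enrichment, the pileup of reads at a summit over the background, taking the highest summit whose interval reached within 2 kb of a start site. Brdt was at 35.8 and 26.9 in PS and 21.2 and 15.1 in RS, with both RS samples lower. Brd2 was at 34.2 and 36.7 in PS and 35.0 and 27.9 in RS, and Brd3 at 9.47 and 10.4 in PS and 10.99 and 6.39 in RS, and for both the stages overlapped. Over the 13699 genes tested the medians per sample were 14.8, 16.4, 13.4 and 9.87, so Brd3 was below the median in every sample and Brdt and Brd2 above it.

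Most genes had lower values in RS on this scale, with a median log2 difference of -0.43, so differences are also given relative to it. In limma, 2178 of 13699 genes (15.9%) were called, 625 higher in RS (4.56%) and 1553 lower (11.3%), and under quantile normalization the calls were 1646 higher and 1451 lower. The count was 0 without either PS replicate, 4685 without RS replicate 1 and 522 without RS replicate 2. None of the BET genes was called. For Brdt the log2 difference was -0.76 (SE 0.27, interval -1.51 to -0.01, adjusted p = 0.13), which is -0.33 relative to the median. For Brd2 it was -0.18 (interval -0.73 to 0.38, adjusted p = 0.53) or 0.26 relative to the median, and it turned to 0.15 under quantile normalization. For Brd3 it was -0.22 (interval -1.04 to 0.61, adjusted p = 0.61) or 0.22 relative to the median, and it turned to 0.14 under quantile normalization and to 0.13 without RS replicate 2. In RS replicate 2 the Brd3 promoter held 3 short intervals of 146 to 531 bases in place of 1 interval. Brdt was called when only genes with a peak in all 4 samples were tested (adjusted p = 0.0071). In that fit 4897 of 11394 genes were called, a larger share than in the main fit. Of the 9 partner and P-TEFb genes none was called for H3K27ac, and of 35 other bromodomain genes 1 was higher and 2 lower in RS. Of 19 genes of H4 acetylation 1 was higher and 3 lower. Of 16 genes of histone replacement 7 were higher and 1 lower, with a median log2 difference of 0.54.

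The Brdt promoter peak was an interval of 3170 and 3062 bases in PS and of 3925 and 3033 bases in RS, and its profile differed between the stages. In PS the highest summits lay 194 and 197 bases after the start site. In RS they lay 692 bases after it and 5 bases before it. The stretch between 1 and 2.5 kb after the start was chosen after its values were seen. It lies in the first intron of the curated isoforms, and the predicted transcript XM_030254058 has its first exon there (chr5:107333105-107333162). The highest summit in the stretch was at 6.996 and 7.13 in PS and at 19.9 and 13.9 in RS. Both RS samples were above both PS samples, as in 46.5% of the 6271 start sites with a peak in this stretch in at least 2 samples. Within 500 bases of the start it was at 35.8 and 26.9 in PS and at 20.7 and 15.1 in RS. The ratio of the downstream to the start value, which needs no scaling between samples, was therefore 0.195 and 0.265 in PS and 0.961 and 0.923 in RS. Both RS ratios were above both PS ratios in 56.9% of the 2213 start sites with peaks in both places in all samples, and below in 10.0%.

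Brdt had a further acetylated stretch in its coding part and one at its end. The first covered exons 10 to 13 of NM_054054 (chr5:107358767-107360281) and was at 12.8 and 13.7 in PS and at 10.6 and 6.39 in RS. Both RS samples were lower, as in 41.3% of all regions, but the region was not called (log2 difference -0.62, interval -1.53 to 0.29, adjusted p = 0.18). It was called without RS replicate 1 (-0.95, adjusted p = 0.043). The second lay in exon 19, the last exon (chr5:107385467-107386886), and was at 9.36 and 6.39 in RS with no interval listed in either PS sample. Since the region entered the set through the RS samples alone, no test is given for it. Neither stretch lies within the short isoform, which ends at position 107350741.

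Brd2 lay under a wider domain than Brdt and Brd3. A single interval of 7298 and 6991 bases in PS and of 9592 and 6956 bases in RS covered all 3 start sites and held 16 to 26 summits. It also covered the start of H2-DMa, a gene of the major histocompatibility complex that begins 225 bases from the outermost Brd2 start on the opposite strand, and the authors' annotation assigned the interval to both genes. H2-DMa RNA was low, with 25 and 23 reads in PS and 81 and 72 in RS (log2 fold change 1.52, SE 0.28, adjusted p = 0.0017). Reads of a mark in this domain cannot be divided between the genes.

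The highest summit of the Brd2 domain lay 102 bases after the outermost start in PS replicate 1 but 3551 bases after it in PS replicate 2, beyond the inner start. Within 500 bases of the start of NM_001204973 the highest summit was at 34.2 and 28.5 in PS and at 18.3 and 17.4 in RS, so both RS samples were lower, as at 55.8% of all 14017 start sites. At the start of NM_010238 it was at 24.7 and 27.95 in PS and at 24.4 and 18.0 in RS. At the start of NR_037970, the transcript with most reads, it was at 27.2 and 27.4 in PS and at 35.0 and 27.9 in RS. Both RS samples were higher there, as at 14.4% of the 14017 start sites, but the second by little. The log2 differences were -0.77 (interval -1.31 to -0.23, adjusted p = 0.085), -0.31 (adjusted p = 0.37) and 0.19 (adjusted p = 0.52), and no start site was called, beside 10.7% of 14017 start sites. The ratio of the outermost to the innermost start was 1.26 and 1.04 in PS and 0.523 and 0.625 in RS. Both RS ratios were below both PS ratios in 38.5% of 187 genes with start sites at least 1 kb apart and peaks at both ends, and above in 28.3%.

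**Figure D4:**
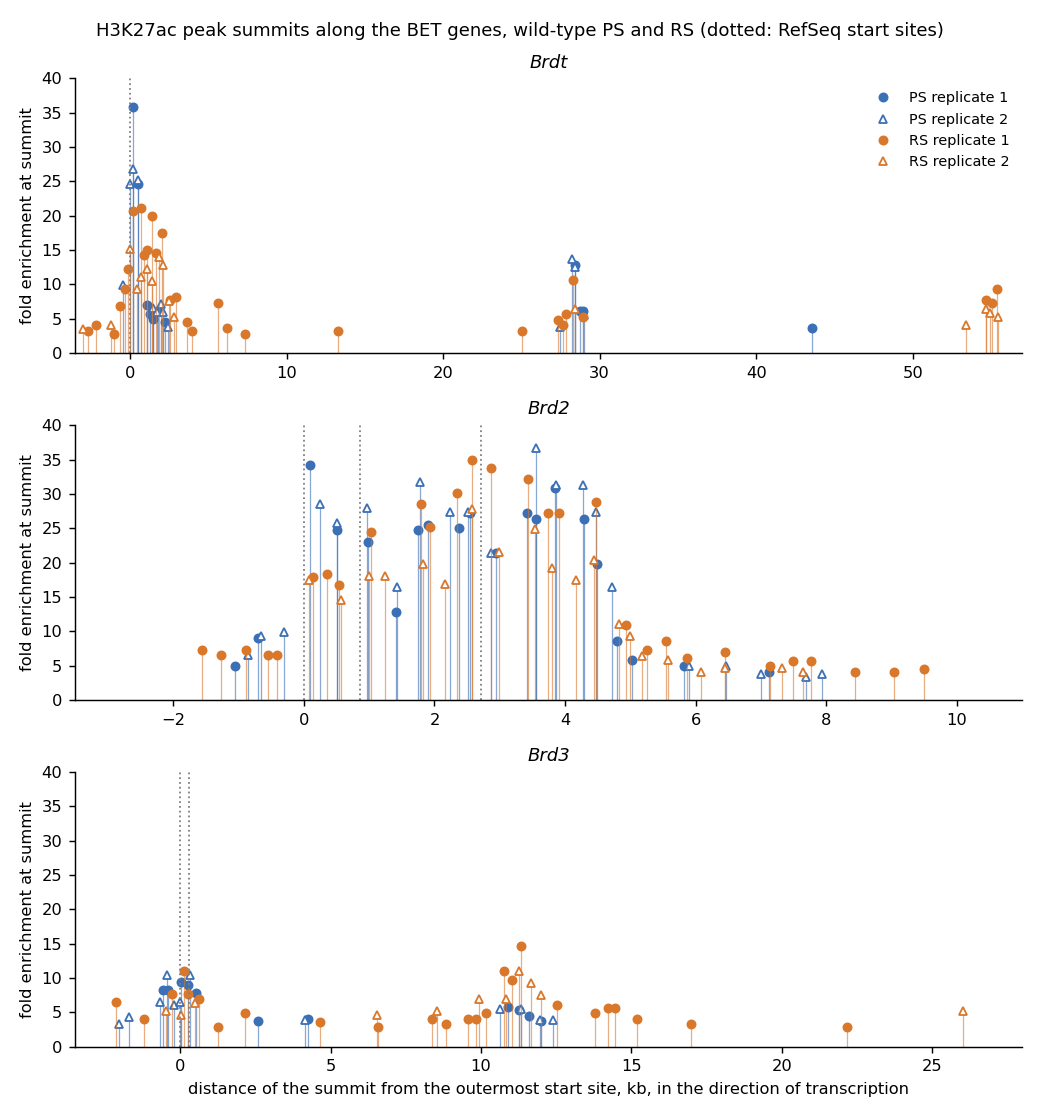
Fold enrichment of every H3K27ac summit of the 3 genes in wild-type PS (blue) and RS (orange) against its distance in kb from the outermost start site, with filled circles for replicate 1, open triangles for replicate 2 and dotted lines at RefSeq start sites. RS summits remain high between 1 and 2.5 kb into Brdt, Brd2 carries one broad domain, and Brd3 has its highest RS summits about 11 kb inside the gene.

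In Brd3 the highest acetylation of RS lay inside the gene. A region at chr2:27462926-27466618 covered exons 2 and 3 of the curated transcripts, with the start of the coding sequence, and parts of the adjoining introns. Predicted RefSeq transcripts begin there too, with first exons at chr2:27464322-27465077 (XM_011239158) and chr2:27463889-27464193 (XM_030251992). The highest RS summits lay 11317 and 11252 bases after the start site, within the former. The region was at 5.76 and 5.48 in PS and at 14.6 and 11.03 in RS. Both RS samples were above both PS samples, as in 38.8% of all regions, and above the Brd3 promoter in the same sample, whereas in PS the promoter was higher. The region was called with a log2 difference of 1.05 (SE 0.18, interval 0.47 to 1.63, adjusted p = 0.024) in a limma fit over joined regions, in which 18768 of 38435 (48.8%) were called. The call was lost without PS replicate 1 (1.08, adjusted p = 0.17) and without PS replicate 2 (1.02, adjusted p = 0.18). RS replicate 1 had the most intervals of all samples, both over the genome and in Brd3, where it had 15 against 5 to 8 in the others. Short regions in the introns of Brd3 were listed in both samples of 1 stage only, and no test is given for them. At chr2:27466741-27467220 fold enrichment was 3.25 and 5.22 in RS, at chr2:27468996-27469357 it was 2.85 and 4.64 in RS, and at chr2:27471363-27471718 it was 4.12 and 3.84 in PS.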

How the data were processed

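Per the labels and the methods of the study, RNA was amplified, sequenced and aligned with STAR 2.4.2a to mm10, keeping unique alignments with at most 2 mismatches, and the authors counted reads on RefSeq genes, dividing them between isoforms by expectation-maximization. Libraries are not stated to be stranded, so antisense reads cannot be told apart. The authors deposited, for each start site, expected counts (here whole numbers) and RPKM. Per the labels, H3K27ac reads were aligned with Bowtie 1.1.1 and the authors called peaks per sample with MACS2 2.1.0.20140616, whereas the methods name earlier versions of both. The deposited lists give the pileup signal at each summit, the ratio of pileup to background (fold enrichment) and the −log10 q-value, from which the lowest listed values per sample were 1.38 to 1.97. The total depth of the ChIP libraries is unknown, so no counting interval is given.

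The members and gene lists were chosen with earlier results of these data known. Counts were summed per gene and tested with edgeR 4.0.16 (quasi-likelihood, TMM) on genes with at least 10 reads in 2 samples. Fold enrichment was tested with limma 3.58.1 on log2(value + 1) for genes with a peak within 2 kb in at least 2 samples, a gene without a peak counting as 0. A call needed a Benjamini-Hochberg adjusted p under 0.05 and 1.5-fold, and intervals are 95%. Each test used only the groups it compares. R 4.3.3 was used, with DESeq2 1.42.0 as an alternative. The fits by row, isoform, single start site and joined region were chosen after seeing the data. In the isoform fit, 3085 rows of several isoforms that could not be divided were left out. Fits were tested on simulated data. Named genes were the 3 BET genes, per list up to 3 called genes a direction with the largest change (5 for bromodomain genes), the nearest genes by level, the deleted genes and neighbours within 2 kb. Larp7, Mepce, Insl3 and Tnp1 lie outside this rule and were named after their values were seen. Some items that these rules would name are not reported here.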

Additional observations from a re-analysis of the deposited data

How the results depend on the processing

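In the RNA comparison, none of the 3 BET genes was called under any alternative run (DESeq2, other size factors, no filter, limma on RPKM, the replicate block, each sample left out), and each kept its direction. The number of genes called lay between 6039 and 9019. For H3K27ac at start sites, 2178 genes were called, against 4897 when a peak was needed in all 4 samples, 1181 with the replicate block and between 0 and 4685 with each sample left out. The 0 in limma came without either PS replicate, with 2584 and 2271 genes at an unadjusted p under 0.05. Brdt was called with a peak needed in all 4 samples (-0.76, adjusted p = 0.0071), where those 4897 calls were among 11394 genes tested. Brd2 turned to 0.149 and Brd3 to 0.140 under quantile normalization, and Brd3 lay between -0.57 and 0.133 with each sample left out, positive without RS replicate 2, both over 2 kb and as a joined region. NR_037970 of Brd2 lay between -0.20 and 0.0041, positive without RS replicate 2. Quantile normalization gave 1646 genes higher and 1451 lower in place of 625 and 1553. The cause of these moves was not tested.

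Replicate numbers are shared by PS and RS, but the labels do not say that they mark an animal. Deviations of same-numbered samples from their group means correlated at 0.23 for RNA and 0.0026 for H3K27ac. With the replicate number as a block, 8723 genes were called in the RNA comparison and Brdt had an adjusted p of 0.072, NM_001204973 of Brd2 was called (-1.02, adjusted p = 0.018), and the region inside Brd3 was not (1.05, adjusted p = 0.063). With 2 samples a group, the intervals at the BET promoters include changes of over 1.5-fold.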
